A study of Mus musculus with 10 samples.

Results

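Expression of 10 mitotic spindle genes was followed through B cell activation and division: the spindle checkpoint kinases Bub1, Bub1b and Ttk, the mitotic kinases Plk1, Aurka and Nek2, the spindle assembly factor Tpx2, and the midzone and cytokinesis proteins Prc1, Ect2 and Anln. They were chosen by symbol, and all 10 were found among the 6610 gene symbols of the deposited table. All 10 also passed the filter on low values (at least 1 TPM in at least 2 libraries), which left 4427 genes for testing. TPM is an abundance per transcript length, scaled to the same total of 1000000 in every library.

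The libraries came from splenic B cells of C57BL/6 mice, an inbred strain, in 5 groups of 2. Resting cells without activation form the group naive. Cells given a pulse of antibodies to IgM, the antigen receptor, and to CD40, a co-stimulatory receptor, were taken at 48 h as undivided (div0) or divided (div12) cells. For a second phase, div12 cells were kept for another 48 h in 0.12 µg/ml anti-CD40 antibody and sorted by flow cytometry into cells that had not divided further (div12_48_u) and cells that had (div12_48_d). Every activated group therefore shares the initial pulse, and both second-phase groups descend from divided cells. The 2 replicates of the first phase, which includes naive cells, were independent pools of 4 to 5 mice, and the sources used here do not say how second-phase replicates relate to mice. First-phase RNA came from 1000000 cells and second-phase RNA from 500000, so phase, culture time and cell input cannot be told apart.

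The spindle checkpoint holds back separation of the chromosomes until every kinetochore, the protein platform on a chromosome's centromere, is attached to spindle microtubules. Ttk starts the checkpoint signal at unattached kinetochores, Bub1 gathers checkpoint proteins there, and the Bub1b product BubR1 is part of the complex that inhibits the anaphase-promoting complex (APC/C). Plk1, Aurka and Nek2 drive entry into mitosis, centrosome maturation and centrosome separation, while Prc1, Ect2 and Anln build the central spindle and the contractile ring that cuts the cell in 2 parts. The RNAs of such genes are known to build up in G2 and mitosis, through promoters that hold a cell cycle homology region (bound by the MuvB complexes DREAM and B-Myb-MuvB) and CCAAT boxes (bound by NF-Y).

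Because the members moved together across the groups, their promoters are shown first. RefSeq promoter windows (GRCm38.p6, 250 bases before to 50 after the start) were matched for 9 of the 10 genes, all but Tpx2. The letters searched on both strands were TTTGAA and TTCGAA for the cell cycle homology region and CCAAT for the CCAAT box, which share no match between them. The last 120 bases of each window are printed 5′ to 3′ in the direction of the gene, 70 before and 50 after the start, with matches on either strand in capitals. They lie at chr2:127831810-127831929 for Bub1 (minus strand), chr2:118598141-118598260 for Bub1b (plus), chr9:83834619-83834738 for Ttk (plus), chr7:122159365-122159484 for Plk1 (plus) and chr2:172370521-172370640 for Aurka (minus). The others lie at chr1:191821403-191821522 for Nek2 (plus), chr7:80294381-80294500 for Prc1 (plus), chr3:27153829-27153948 for Ect2 (minus) and chr9:22389157-22389276 for Anln (minus). Prc1 and Ect2 have 2 annotated starts each, and the upstream one is used.
Bub1: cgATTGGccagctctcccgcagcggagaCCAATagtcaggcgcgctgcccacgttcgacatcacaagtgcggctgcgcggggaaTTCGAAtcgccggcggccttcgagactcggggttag
Bub1b: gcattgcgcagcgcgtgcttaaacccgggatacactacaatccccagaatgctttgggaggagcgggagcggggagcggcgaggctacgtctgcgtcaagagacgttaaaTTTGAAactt
Ttk: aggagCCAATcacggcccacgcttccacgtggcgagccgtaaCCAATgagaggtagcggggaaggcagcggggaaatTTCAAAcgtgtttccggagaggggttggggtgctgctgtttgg
Plk1: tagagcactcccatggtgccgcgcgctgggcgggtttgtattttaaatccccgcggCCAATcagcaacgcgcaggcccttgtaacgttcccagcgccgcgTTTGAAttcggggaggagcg
Aurka: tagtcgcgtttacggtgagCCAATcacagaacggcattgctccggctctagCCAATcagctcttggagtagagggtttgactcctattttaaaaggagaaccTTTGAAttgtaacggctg
Nek2: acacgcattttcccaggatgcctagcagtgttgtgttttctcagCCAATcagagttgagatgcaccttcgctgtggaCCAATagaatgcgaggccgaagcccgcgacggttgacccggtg
Prc1: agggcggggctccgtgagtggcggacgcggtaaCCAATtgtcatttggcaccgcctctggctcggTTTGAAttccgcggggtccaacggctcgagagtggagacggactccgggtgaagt
Ect2: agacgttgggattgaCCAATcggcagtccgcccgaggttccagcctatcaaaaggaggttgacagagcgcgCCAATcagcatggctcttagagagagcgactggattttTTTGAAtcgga
Anln: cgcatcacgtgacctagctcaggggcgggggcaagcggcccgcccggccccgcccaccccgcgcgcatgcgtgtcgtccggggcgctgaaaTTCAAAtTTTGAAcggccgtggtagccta

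The whole 300-base windows of 8 of the 9 genes held a cell cycle homology region, all but Nek2, against 19.2% of all 32851 windows in the table and 14.1% of the 4526 windows of tested genes. In the last 120 bases, a choice made after seeing the data, it was again 8 of 9 genes. The share there was 6.42% of all windows and 4.42% of the windows of tested genes. A CCAAT box stood in the windows of 8 of 9 genes, all but Anln, against 37.4% of all windows and 37.0% of those of tested genes. In the last 120 bases it stood in 7 of 9, against 17.9% and 18.8%. Both motifs stood in the same window in 7 of 9 genes, against 7.52% of all windows. A gene counted if any of its windows held the letters, while the shares are per window. Genes of this kind are known to hold both motifs, as said above, so these counts are a description and not a test. In Bub1, Ttk, Plk1, Aurka and Prc1 the homology region followed the CCAAT box on the downstream side, near or just after the annotated start. Bub1b and Ect2 also had a homology match downstream of their CCAAT boxes, beginning 41 and 40 bases into the transcript. Both held another match upstream of those boxes. Nek2, which lacked the homology letters in this window, was also lowest in naive cells, next in div12_48_u and highest in div12, and the letters by themselves show neither binding nor use.

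**Figure D1:**
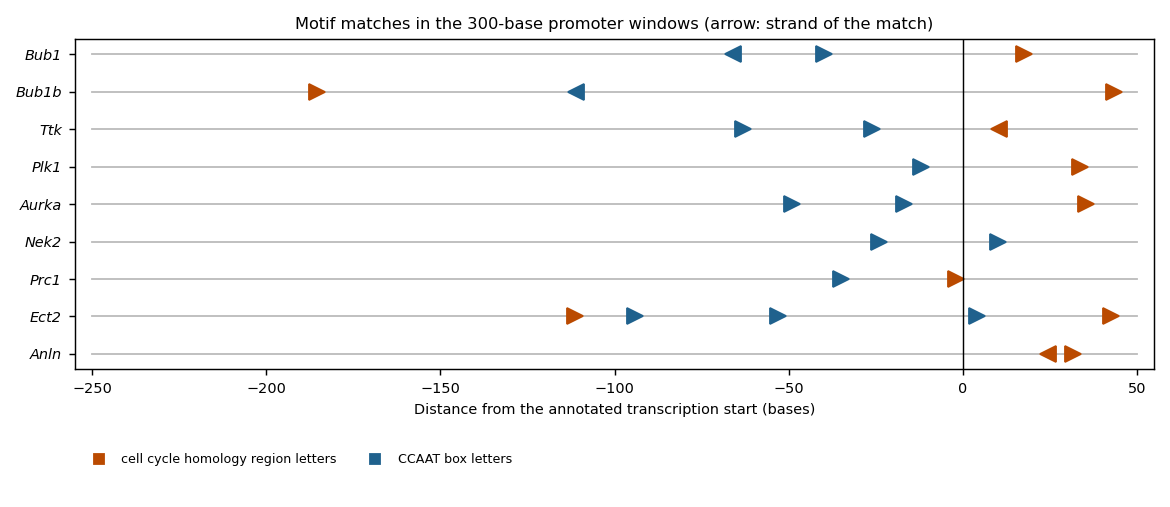
Positions of motif matches in the promoter windows of 9 genes, with distance from the annotated transcription start in bases on the x axis, cell cycle homology letters in orange and CCAAT letters in blue, arrows pointing along the strand of the match. In 8 genes a homology match falls within the last 120 bases of the window, and Nek2 has none.

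The 10 genes shared most of their order of groups. The mean was lowest in naive cells, next in div12_48_u and highest in div12 for 10 of 10 genes, while div0 and div12_48_d lay between as neighbours whose libraries overlapped in 10 of 10, with the div12_48_d mean above the div0 mean in 5. The share of all tested genes with this order or this overlap was not counted, so these counts describe the members only. The summed TPM of the 10 genes was 141 ± 7.81 in naive cells (SD, n = 2 libraries, as for every mean here). It was 834 ± 160 in div0 and 1190 ± 205 in div12, and in the second phase 362 ± 88.2 in div12_48_u against 838 ± 70.8 in div12_48_d. On the TPM scale the most abundant member in div12 was Bub1b at 206 ± 32.5 and the least abundant Anln at 38.1 ± 4.79. In RNA from a whole population, a smaller share of cells in G2 or mitosis and less RNA per cell cannot be told apart.

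**Figure D2:**
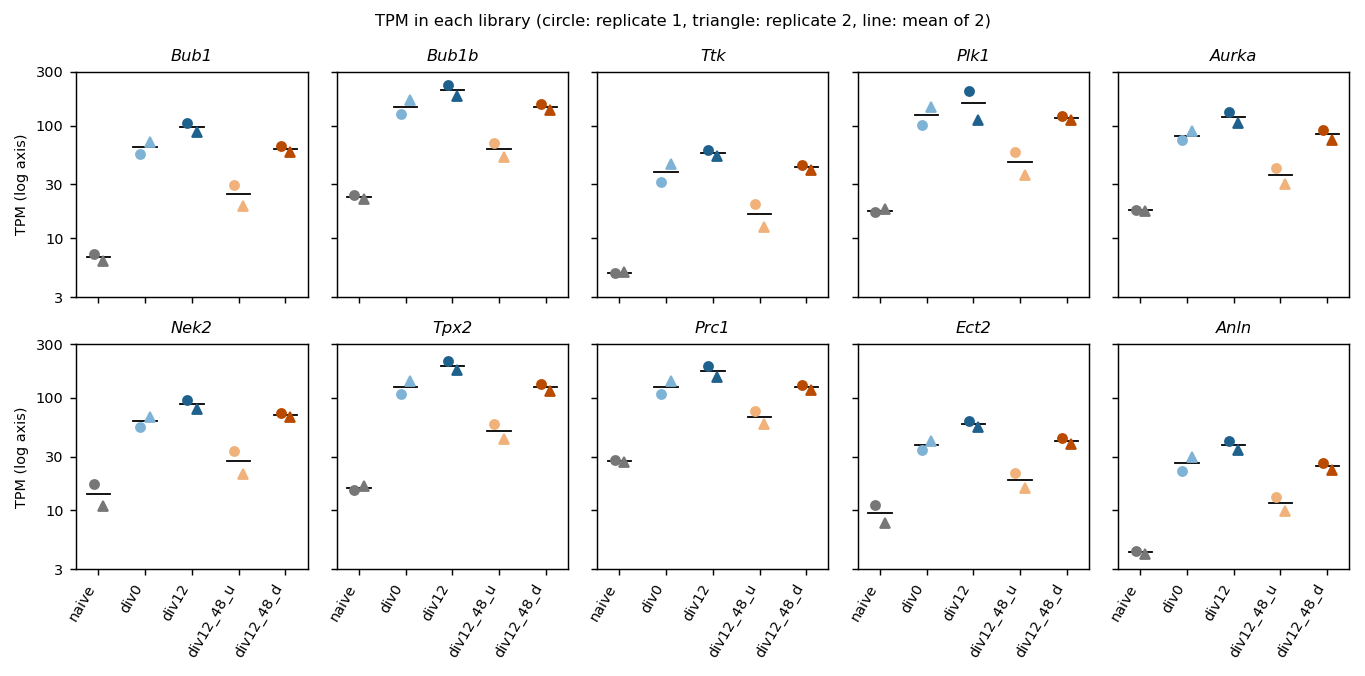
TPM of each gene (log axis) in the 10 libraries, with a circle for replicate 1, a triangle for replicate 2 and a line at the mean of 2. In every panel naive is lowest and div12_48_u next, and div12 has the highest mean.

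As to the libraries themselves, sequencing depth is unknown, since TPM keeps no count. The naive replicates differed most, with 340 of 4427 genes more than 2-fold apart, against 33 to 65 genes in the other groups. B cell markers were abundant throughout, with Cd79a, a chain of the antigen receptor complex, between 6235 and 10896 TPM. Naive libraries also held 834 to 2576 TPM summed over 13 measured myeloid markers, against 88.4 to 303 in activated libraries, and 2716 to 3288 TPM over 6 erythroid markers, against 28.1 to 54.0. Over 6 T cell markers the sum was 165 to 180 TPM in naive cells, 140 to 176 in first-phase activated cells, 377 to 431 in div12_48_u and 494 to 522 in div12_48_d. Within that list Lck ran from 125 TPM in its lowest library to 445 in its highest and Cd5 from 11.4 to 74.7, both highest in div12_48_d, while Cd3e was at 10.2 and 10.3 in naive cells and at most 0.345 elsewhere. Of the myeloid genes C1qa was at 0 in all 8 activated libraries, C1qb reached 2.54 TPM there, and Adgre1 was at 23.4 and 65.6 TPM in naive cells, 108 and 103 in div12_48_u and 139 and 204 in div12_48_d. With the markers of cell types other than B and plasma cells left out and TPM rescaled, an alternative added after seeing the data, the medians of the members' changes against naive moved by at most 0.01, to 2.48 for div0 and 2.96 for div12. That step removes only the listed genes and scales all others in a library by the same factor. It cannot show how other cells affected the members' values in naive libraries, which was not tested.

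Every member rose on activation, also in cells that had not divided. Changes are differences of log2(TPM + 1) ± SE from limma, which understate the change of low genes, and "rose", "fell" and "called" mean a two-sided Benjamini-Hochberg adjusted p under 0.05 over 4427 genes. In div0 against naive, 10 of 10 members rose, against 15.4% of tested genes called higher, with changes from 1.91 (Ect2) to 3.06 (Bub1), a median of 2.49 and adjusted p from 1.91e-05 to 3.11e-04. The median over all tested genes was -0.24. In div12 against naive, 10 of 10 rose, against 19.4% of tested genes, from 2.53 (Ect2) to 3.65 (Bub1) with a median of 2.97. These comparisons share the naive libraries, whose myeloid and erythroid marker levels are given above.

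Divided cells held more of all 10 RNAs than cells that stayed undivided in the second phase, and the first-phase difference did not pass the test. In div12_48_d against div12_48_u, 10 of 10 members rose, against 12.2% of tested genes called higher, from 0.89 (Prc1) to 1.38 (Nek2), with a median of 1.28 beside -0.08 for all tested genes. Markers of other cells also moved between these groups, with B cell markers summing to 37217 to 41932 TPM in div12_48_d against 54548 to 57758 in div12_48_u, and plasma cell markers to 972 to 1193 against 458 to 480. Their part in the result was not tested. Without div12_48_d replicate 1 the count of members was 5, against 4.56% of tested genes, with Plk1, Nek2, Prc1, Ect2 and Anln at adjusted p from 0.0562 (Nek2) to 0.108 (Plk1). In div12 against div0, 0 of 10 members were called by limma (3.68% of tested genes were called higher), with differences from 0.31 (Plk1) to 0.63 (Tpx2) and adjusted p from 0.0678 to 0.569. Before adjustment 8 of 10 had p under 0.05, as 28.6% of tested genes did, and in 9 of 10 the div12 libraries lay above both div0 libraries, which was so for 25.6% of tested genes. After median-ratio scaling of the libraries 4 of 10 were called in this comparison (Bub1, Aurka, Tpx2 and Prc1), against 7.48% of tested genes called higher.

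The second-phase division effect exceeded the first-phase one by a median of 0.69, from 0.42 (Prc1) to 1.01 (Plk1), but 0 of 10 members and 0 of 4427 genes passed limma's test of that difference (0.00% of tested genes called). The members' adjusted p ran from 0.340 to 0.668, and 6 members and 438 genes had an unadjusted p under 0.05. Since div12 is the parent of both second-phase groups, each was also set against it. In div12_48_u, 10 of 10 members fell, against 13.6% of tested genes called lower, by between 1.36 (Prc1) and 1.96 (Bub1) on the log2 scale, which left 25.5% (Bub1) to 38.8% (Prc1) of the div12 mean. B cell markers summed to 35554 to 39707 TPM in div12 and 54548 to 57758 in div12_48_u, and the T cell list to 161 to 176 and 377 to 431. Most of the T cell sum was Lck, at 137 and 151 TPM in div12 and 346 and 401 in div12_48_u. Cd3e was at most 0.116 TPM in these groups, and the part of these markers in the result was not tested. In div12_48_d, 0 of 10 were called by limma (4.09% of tested genes were called lower), with differences from -0.64 (Bub1) to -0.30 (Nek2), adjusted p from 0.0531 to 0.476, and 63.8% (Bub1) to 80.7% (Nek2) of the div12 mean. There, 7 of 10 had an unadjusted p under 0.05, against 30.8% of tested genes, and 9 of 10 lay below both div12 libraries, as 22.6% of tested genes did. After median-ratio scaling 6 of 10 were called in that comparison, against 9.67% of tested genes called lower.

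**Figure D3:**
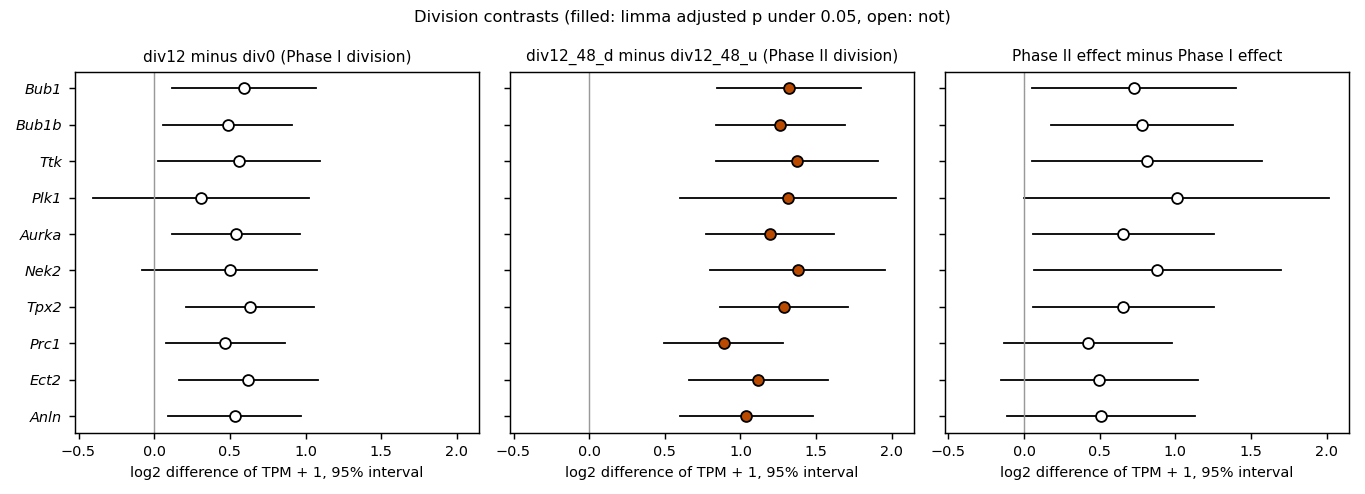
Log2 difference of TPM + 1 with its 95% interval for each gene, for division in the first phase (left), in the second phase (middle) and for the second effect minus the first (right), filled where the adjusted p is under 0.05. All 10 points are filled in the middle panel and 0 in the others, where 8 (left) and 6 (right) of the 10 intervals lie above 0.

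Cells that did not divide again were still above resting cells. In div12_48_u against naive, 10 of 10 members rose, against 15.2% of tested genes, from 0.91 (Ect2) to 1.70 (Bub1), and in div12_48_d against naive 10 of 10 rose, against 21.8%, from 2.03 (Ect2) to 3.02 (Bub1). Without div12_48_u replicate 1 the first of these counts was 7 (Plk1, Nek2 and Ect2 were not called), against 9.76% of tested genes. A comparison of div12_48_d with div0, added after seeing the data, called 0 of 10 members by limma (18.5% of tested genes in either direction), at differences from -0.08 to 0.20, with 0 members and 31.4% of tested genes at an unadjusted p under 0.05. Its 95% intervals reached from -0.79 at the lowest to 0.77 at the highest, both set by the members with the widest spread, Plk1 and Nek2.

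Bub1 (chromosome 2, 127800197 to 127831859, GRCm38.p6), the kinase that marks kinetochores and recruits checkpoint proteins, was at 7.18 and 6.33 TPM in naive cells (replicates 1 and 2, an order kept throughout). The div0 libraries held 56.3 and 71.8, those of div12 105 and 88.6, those of div12_48_u 29.8 and 19.5 and those of div12_48_d 65.7 and 57.9. Its groups did not overlap except for div0 and div12_48_d. It had the largest change of the 10 members against naive, 3.65 ± 0.21 in div12 (adjusted p = 5.27e-06, limma). In the second phase it was 1.32 ± 0.21 higher in divided cells (adjusted p = 0.00394, limma), and in the first the difference was 0.59 ± 0.21 (adjusted p = 0.107).

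Bub1b (chromosome 2, 118598202 to 118641592), which encodes the checkpoint effector BubR1, was at 24.0 and 22.1 TPM in naive cells. Values in div0 were 127 and 168, those of div12 229 and 183, those of div12_48_u 70.5 and 52.3 and those of div12_48_d 156 and 139. Both div12_48_d libraries fell inside the range of div0, and all other groups stood apart. Bub1b rose by 1.26 ± 0.19 with division in the second phase (adjusted p = 0.00321, limma), and its difference in the first phase was 0.49 ± 0.19 (adjusted p = 0.129). It made up 16.3% to 17.7% of the summed TPM of the 10 genes in every library.

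Ttk (chromosome 9, 83834651 to 83872390), the kinase Mps1 at the top of the checkpoint, was at 4.86 and 5.00 TPM in naive cells. In div0 it stood at 31.8 and 45.9, those of div12 60.4 and 53.6, those of div12_48_u 20.2 and 12.4 and those of div12_48_d 44.8 and 40.7. The div12_48_d libraries again lay between those of div0. Ttk rose by 1.37 ± 0.23 in divided second-phase cells (adjusted p = 0.00529, limma), against a first-phase difference of 0.56 ± 0.23 (adjusted p = 0.158). Together the 3 checkpoint kinases had changes of 2.61 to 3.06 on activation to div0.

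Plk1 (chromosome 7, 122159435 to 122169884), the polo-like kinase of mitotic entry and exit, was at 17.0 and 18.2 TPM in naive cells. Undivided div0 cells held 101 and 148, those of div12 205 and 112, those of div12_48_u 58.7 and 36.1 and those of div12_48_d 121 and 112. Its div12 replicates were the furthest apart of any member, and the lower of them lay inside the range of div0. Plk1 had the widest interval in each comparison, with a first-phase difference of 0.31 (95% interval -0.40 to 1.02, limma). Without div12 replicate 1 that difference turned to -0.12 (adjusted p = 0.854, limma). In the second phase it rose by 1.32 ± 0.31 with division (adjusted p = 0.0179), and this call was lost without div12_48_u replicate 2 (adjusted p = 0.104), div12_48_d replicate 1 (0.108) or div12_48_d replicate 2 (0.0578).

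Aurka (chromosome 2, 172356190 to 172370886), the Aurora kinase of centrosomes and spindle poles, was at 17.8 and 17.6 TPM in naive cells. The div0 values were 74.2 and 88.7, those of div12 133 and 105, those of div12_48_u 41.7 and 30.4 and those of div12_48_d 91.8 and 75.0. Naive replicates were close together, and div0 and div12_48_d shared one range. The rise with division in the second phase was 1.20 ± 0.18 (adjusted p = 0.00359, limma), and the first-phase difference was 0.54 ± 0.18 (adjusted p = 0.102).

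Nek2 (chromosome 1, 191821449 to 191833049), a kinase that loosens the link between centrosomes, was at 17.0 and 10.9 TPM in naive cells. Its div0 libraries were at 55.5 and 68.3, those of div12 95.2 and 80.3, those of div12_48_u 33.5 and 21.1 and those of div12_48_d 73.6 and 68.1. The higher naive library came close to the lower div12_48_u one without reaching it. Nek2 had the largest second-phase rise, 1.38 ± 0.25 (adjusted p = 0.00682, limma), and kept the largest share of its div12 mean in div12_48_d. Its first-phase difference was 0.50 ± 0.25, with an interval that included 0 (-0.08 to 1.08). The rise of Nek2 in div12_48_u over naive, 0.91 ± 0.25 (adjusted p = 0.0191), did not hold when naive replicate 2 was left out (adjusted p = 0.109), without div12_48_u replicate 1 (0.120) and with only div12_48_u and naive in the model (0.117).

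Tpx2 (chromosome 2, 152847964 to 152895321), which nucleates spindle microtubules and activates Aurka, was at 15.1 and 16.6 TPM in naive cells. In div0 cells it reached 109 and 143, those of div12 211 and 177, those of div12_48_u 59.2 and 43.2 and those of div12_48_d 134 and 116. Of the members it came closest to the threshold in div12 against div0 and in div12_48_d against div12. Its first-phase difference was 0.63 ± 0.18 (adjusted p = 0.0678, limma), and div12_48_d minus div12 was -0.63 ± 0.18 (adjusted p = 0.0531). In the second phase Tpx2 rose by 1.29 ± 0.18 in divided cells (adjusted p = 0.00286). Its partner Aurka rose by less on activation, 2.13 ± 0.18 in div0 against 2.90 ± 0.18 for Tpx2, a difference between genes that was not tested.

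Prc1 (chromosome 7, 80294445 to 80316259), which bundles the antiparallel microtubules of the central spindle, was at 28.1 and 26.9 TPM in naive cells. The div0 pair held 109 and 142, those of div12 193 and 155, those of div12_48_u 76.0 and 58.8 and those of div12_48_d 131 and 118. It was the most abundant member in naive cells and in div12_48_u, where Bub1b was next. Prc1 had the smallest second-phase rise of the 10 genes, 0.89 ± 0.17 (adjusted p = 0.00824, limma), and this call was lost without div12_48_u replicate 2 (adjusted p = 0.0531) or div12_48_d replicate 1 (0.0695). The first-phase difference was 0.47 ± 0.17 (adjusted p = 0.116).

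Ect2 (chromosome 3, 27097222 to 27154253), the exchange factor that activates RhoA at the cell equator, was at 11.1 and 7.80 TPM in naive cells. Libraries of div0 showed 34.3 and 41.8, those of div12 62.5 and 55.3, those of div12_48_u 21.4 and 15.8 and those of div12_48_d 43.6 and 38.8. Its rise on activation was the smallest of the members, 1.91 ± 0.20 in div0 (adjusted p = 1.68e-04, limma). With division it rose by 1.12 ± 0.20 in the second phase (adjusted p = 0.00631), and the first-phase difference was 0.62 ± 0.20 (adjusted p = 0.0884). In div12_48_u over naive Ect2 rose by 0.91 ± 0.20 (adjusted p = 0.00731, limma). This call was lost with only div12_48_u and naive in the model (adjusted p = 0.0769) and with the most abundant transcript (0.0940).

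Anln (chromosome 9, 22331214 to 22389211), the scaffold anillin that ties actin, myosin and septins in the contractile ring, was at 4.37 and 4.10 TPM in naive cells. Its div0 values came to 22.5 and 29.8, those of div12 41.5 and 34.7, those of div12_48_u 13.3 and 9.84 and those of div12_48_d 26.4 and 22.8. All groups but div0 and div12_48_d stood apart. Anln rose by 1.04 ± 0.19 with division in the second phase (adjusted p = 0.00703, limma), and in the first the difference was 0.53 ± 0.19 (adjusted p = 0.113).

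The proportions of the 10 RNAs to one another changed less than their sum. Anln made up 2.90% to 3.32% of the summed TPM in every library, Aurka 9.37% to 13.0% and Plk1 10.7% to 15.6%. Shares of Bub1 ranged from 4.67% to 8.47% and those of Tpx2 from 10.3% to 17.0%, both lowest in naive cells. Prc1 ranged from 14.4% to 19.8%, and its 4 highest shares were in the naive and div12_48_u libraries. The members also deviated together within a group. All 10 were lower in replicate 1 of div0 and all 10 were higher in replicate 1 of div12, div12_48_u and div12_48_d, so the members do not give independent readings of a difference between groups.

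**Figure D4:**
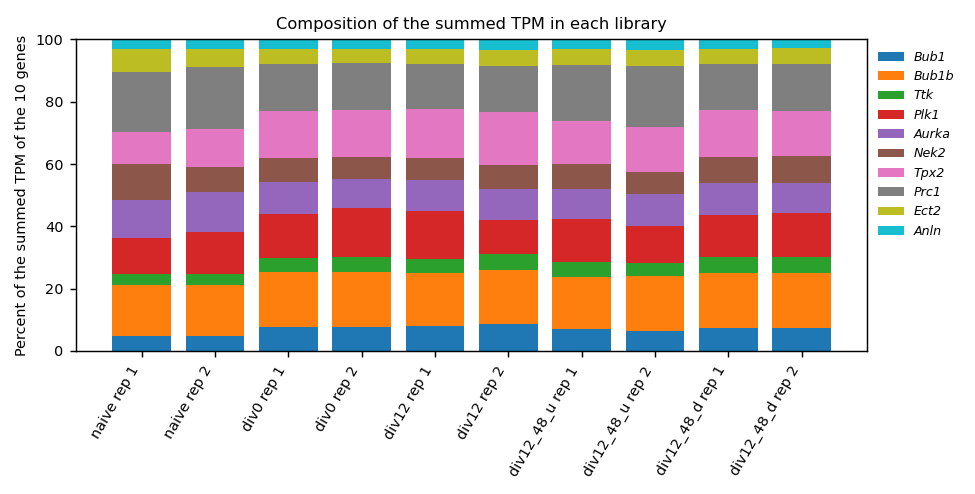
Share of each gene, in percent, in the summed TPM of the 10 genes for each of the 10 libraries. Bub1b stays between 16.3% and 17.7%, and the Bub1 and Tpx2 segments are narrowest in the naive libraries.

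Over the 10 libraries the log2(TPM + 1) profiles of member pairs had a median Pearson r of 0.992, from 0.973 (Plk1 and Ect2) to 0.999 (Bub1 and Bub1b). These are descriptions without a test, since the libraries share groups and the naive libraries are far from the others. In the 8 activated libraries alone the median was again 0.992, with a lowest pair of 0.946 (Plk1 and Ect2). The tested genes outside the members with profiles most like their mean, among genes of at least 10 TPM in their highest group, were Ccna2 (r = 0.999), Ccnb2 (0.999), Sgo2a (0.998), Kif23 (0.996) and Pif1 (0.996). In the 8 activated libraries they included Sgo2a (0.998), Ccna2 (0.998), Ccnb2 (0.995) and Rrm2 (0.995). The median r over all tested genes was -0.48 in 10 libraries and the 95th percentile 0.913. Ccna2, an S and G2 phase cyclin, was at 294.7 ± 31.0 TPM in div12 and 86.5 ± 17.3 in div12_48_u, and Sgo2a, a guardian of centromeric cohesion, at 48.5 ± 7.11 and 16.0 ± 3.22.

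Other genes of these pathways are only partly in the table, and genes outside it were not analysed here. The counts are read against 15.4% of tested genes called higher in div0 and 12.2% with second-phase division. Of 26 further checkpoint and kinetochore genes 3 were tested, Cenpf, Knl1 and Trip13, and 3 of 3 rose in div0 and with division in the second phase, by 0.92 ± 0.22, 0.72 ± 0.21 and 1.37 ± 0.18, with a median of 0.92. Sgo2a, listed under an older symbol and so not in that count, rose in both as well, by 1.03 ± 0.18 with second-phase division (adjusted p = 0.00595, limma). All 4 mitotic cyclins rose in both comparisons, with a second-phase median of 1.34, among them Ccnb1 (1.49 ± 0.22) and Ccnb2 (1.44 ± 0.17), the partners of Cdk1. Of 16 other mitotic kinases 4 were tested, and 3 rose in both (Cdk1, Aurkb and Cit). Cdk1, the kinase that starts mitosis, also rose in div12 over div0, by 0.64 ± 0.16 (adjusted p = 0.0471, limma), where 0 of the 10 members were called, but the list held 0 calls in 15 of 23 alternatives. Of 22 spindle assembly genes 3 were tested and 1 rose with second-phase division, the kinesin Kif18a (0.68 ± 0.21), while Tacc1, which encodes a coiled-coil protein of the centrosome (-0.11 ± 0.10), and the gamma-tubulin gene Tubg1 (0.45 ± 0.19) were not called.

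Of 18 central spindle and cytokinesis genes 8 were tested, and 5 rose with second-phase division, with a median of 0.91 over the 8. Those 5 were Birc5 (1.47 ± 0.15), which encodes survivin, Kif23 (1.09 ± 0.19), Aurkb, Cit and Incenp. The abundant Rhoa, the GTPase that Ect2 activates, had -0.11 ± 0.09 and the septin Sept7 -0.07 ± 0.07, neither called. Birc5 also rose in div12 over div0 (0.67 ± 0.15, adjusted p = 0.0361, limma), and that list held 0 calls in 10 of 23 alternatives. Of 27 APC/C and mitotic exit genes 5 were tested, and 1 rose with second-phase division, a share near that of all genes, the phosphatase gene Cdc25b (0.81 ± 0.19), while Anapc13 (0.12 ± 0.11) and the APC/C activator Fzr1 (0.20 ± 0.21) were not called. Of 22 regulators of G2/M transcription 9 were tested and 5 rose, Foxm1 (0.99 ± 0.25), Tfdp1 (0.83 ± 0.12), Cdkn1a (1.67 ± 0.38), E2f1 and Rbl1, with a median of 0.46, and Trp53 was not called (-0.07 ± 0.18). Cdkn1a encodes an inhibitor of cyclin-dependent kinases, unlike the activator Foxm1. Cdkn1a stood at 4.10 and 2.03 TPM in div12_48_u against 13.0 and 10.1 in div12_48_d. These second-phase counts were lower without div12_48_u replicate 2 or either div12_48_d library, where the fewest calls were 1 of 3 checkpoint genes, 1 of 4 kinases, 2 of 8 cytokinesis genes and 1 of 9 regulators, and 3 of 4 cyclins without div12_48_d replicate 1. The spindle assembly list of Kif18a had 0 calls in 11 of 22 alternatives, among them the lack of any 1 library of div0, div12 or the second phase, and the list of Cdc25b had 0 calls in 3 of 22, without either div12_48_u library or div12_48_d replicate 2. Aurkb and Cit are in 2 of these lists, and Cit, Incenp, E2f1 and Rbl1 are named here after their values were seen. In div0 against naive these lists did not all move with the members. There, 2 of 3 spindle assembly genes rose and 0 fell. Of the 8 cytokinesis genes 6 rose and 2 fell, among them Rhoa (-0.46 ± 0.09). Among the 5 APC/C genes 2 rose and 2 fell, Cdc25b with -0.89 ± 0.19. Of the 9 regulators 5 rose and 3 fell, among them Cdkn1a (-1.21 ± 0.38, adjusted p = 0.0262, limma).

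The table lists the members as 22 RefSeq transcripts, all of which passed the filter, and a fit of single transcripts was added after seeing the data. Of 8165 tested transcripts 5.21% were called higher in div12_48_d than in div12_48_u, and 12 of the 22 were. In div12 against naive 20 of 22 rose, against 12.6% of transcripts. Estimates for transcripts that share most of their sequence are less certain with 50 bp reads, and no source used here says how reads were divided among them. The sequences that set apart 3 scarce forms are shown here from the reference transcripts, because these forms varied less across the groups than the main ones.

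The Ect2 transcript NM_007900 has a coding exon of 93 bases (chr3:27148795-27148887, minus strand) that the other forms lack, in capitals between 15 bases of its neighbours. The Ttk transcript NM_001284272 lacks an exon of 81 bases (chr9:83865078-83865158, plus strand), given in capitals, and also the start of the next exon, which is not printed. The Prc1 transcript NM_001285997 lacks the last 9 bases that an exon has in NM_145150 (chr7:80311172-80311180, plus strand), given in capitals between 15 bases of its neighbours.
Ect2: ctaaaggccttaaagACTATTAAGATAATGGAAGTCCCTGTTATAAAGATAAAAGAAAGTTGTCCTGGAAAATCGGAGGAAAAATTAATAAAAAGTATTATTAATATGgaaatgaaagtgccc
Ttk: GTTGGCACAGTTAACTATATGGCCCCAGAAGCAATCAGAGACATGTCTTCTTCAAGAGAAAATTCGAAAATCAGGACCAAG
Prc1: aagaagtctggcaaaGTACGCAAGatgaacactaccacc

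Ect2 NM_007900 was at 2.30 and 1.44 TPM in naive cells. The div0 samples held 2.48 and 3.81, those of div12 4.37 and 2.56, those of div12_48_u 3.20 and 2.40 and those of div12_48_d 1.95 and 3.72, so that all activated groups overlapped. It made up 19.7% of Ect2 TPM in naive cells, 8.25% in div0 and 5.88% in div12. In the same libraries the main form NM_001177626 ran from 4.40 ± 0.967 in naive cells to 33.3 ± 2.57 in div12, and it rose by 1.47 ± 0.30 with second-phase division (adjusted p = 0.0234, limma), where NM_001177625, the other abundant form, had 0.77 ± 0.31 (adjusted p = 0.164) and NM_007900 -0.02 ± 0.33 (adjusted p = 0.987). Prc1 NM_001285997 was between 4.93 and 12.3 TPM in all 10 libraries and made up 19.6% of Prc1 in naive cells against 3.56% in div12. The Prc1 forms NM_145150 and NM_001285998 rose by 2.67 ± 0.27 and 2.98 ± 0.17 in div12 over naive, and NM_001285997 had 0.15 ± 0.32 (adjusted p = 0.716, limma).

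Ttk NM_001284272 was at 0.892 ± 0.0865 TPM in naive cells and at 2.50 ± 0.756 in div12, a rise of 0.87 ± 0.23 (adjusted p = 0.0130, limma), beside 3.65 ± 0.26 for the main form NM_009445. With second-phase division it had -0.01 ± 0.23 and the main form 1.62 ± 0.26. The third form, NM_001110265, is matched to the same reference model as the main form, which holds the printed exon. It was also scarce, at 0.933 ± 0.0547 TPM in naive cells and 4.02 ± 0.217 in div12. Its rise there was 1.38 ± 0.30 (adjusted p = 0.00609, limma), and with second-phase division it had 0.37 ± 0.30 (adjusted p = 0.479). Aurka NM_011497 differs from NM_001291185 in both ends of its first exon and the far end of its last exon, and has a coding sequence of the same length (1185 bases). Over naive cells, at 2.15 and 3.88 TPM, it rose by 1.35 ± 0.38 in div0 (adjusted p = 0.0262, limma) and 1.18 ± 0.38 in div12 (adjusted p = 0.0310). Its 2 div0 libraries held 8.895 and 9.10 TPM, those of div12 9.79 and 6.29, those of div12_48_u 7.58 and 3.81 and those of div12_48_d 6.74 and 3.98. The last 3 groups overlapped, and its second-phase difference was -0.05 ± 0.38, against a rise of 1.34 ± 0.19 for NM_001291185. Whether the forms of a gene differed in their change was not tested, and at levels of a few TPM the log2(TPM + 1) scale compresses a change.

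**Figure D5:**
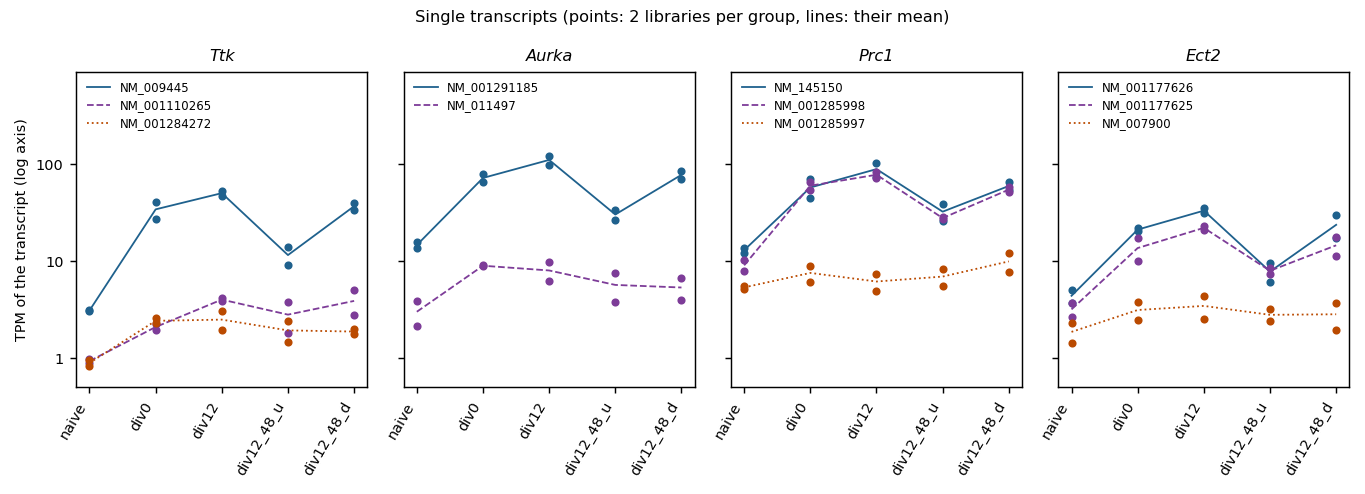
TPM (log axis) of each listed transcript of Ttk, Aurka, Prc1 and Ect2 in the 5 groups, with points for the 2 libraries and lines through their means. The scarce forms Ttk NM_001284272, Aurka NM_011497, Prc1 NM_001285997 and Ect2 NM_007900 run flatter from div0 to div12_48_d than the main forms, whose means dip at div12_48_u.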

How the data were processed

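Libraries were made from 100 ng of ribosome-depleted total RNA and read from 1 end for 50 bp, per the labels' protocols. The deposited values are TPM by RefSeq transcript on mm10, and each library sums to 1000000. Tools in the submitters' processing notes are Salmon, HISAT2, HTSeq, featureCounts and DESeq2, with roles and versions not given in the sources used here. Depth is unknown, so no counting interval is given, and genes outside the table change what TPM is relative to. Of 13128 transcripts with values, 63 without a symbol (at most 3793 TPM in a library) were dropped, and the other 13065 were added up per symbol. Group means were compared with limma 3.58.1 (R 4.3.3) on log2(TPM + 1) in 1 model of all 10 libraries with a mean-variance trend, 5 residual degrees of freedom and 9 planned comparisons. P-values measure the spread between the 2 libraries of a group. Simulated data of the same size, for div12 against div0, gave calls for 80.6% of genes changed 2-fold and 97.4% changed 4-fold. The simulated noise was independent between genes, and changes as small as the members' 0.31 to 0.63 on the log2 scale were not simulated. These rates therefore do not apply to the members in that comparison.

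The members and gene lists were chosen with earlier results of these data known. Named from each list were its 2 most abundant tested genes and up to 2 called genes with the largest change in div12_48_d against div12_48_u. Named by likeness were the 5 tested genes with the highest Pearson r to the members' mean profile and at least 10 TPM, of which 1 is not reported here. Alternatives were a pseudocount of 0.1 or 5, no filter or 5 TPM, median-ratio scaling, quantile normalization, the compared groups alone, a replicate block, no trend, the most abundant transcript and leaving out each library. Others, named as such, were added after seeing the data. Sequences are from RefSeq promoter windows (GRCm38.p6) and GENCODE vM21 transcripts. Tables and figures were made with matplotlib 3.10.9, numpy 2.4.6 and pandas 2.3.3 under Python 3.11.15.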

Additional observations from a re-analysis of the deposited data

How the results depend on the processing

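Counts of members called kept within 1.5 times their value under all alternatives for both first-phase comparisons with naive, div12_48_u against div12, both second-phase groups against naive, and the difference of the division effects. For div12 against div0 the 0 members became 4 after median-ratio scaling and 1 after quantile normalization, and for div12_48_d against div12 they became 6 and 3, 1 with a filter at 5 TPM and 1 with the most abundant transcript. Leaving out 1 library gave 0 to 2 for div12_48_d against div12 (2 without either div12_48_u library) and 5 to 10 for div12_48_d against div12_48_u (5 without div12_48_d replicate 1). A group reduced to 1 library was taken to have the spread of the other groups. Without 1 library, Plk1 ranged from -0.12 to 0.74 in div12 against div0 and from -0.81 to 0.048 in div12_48_d against div12, turning sign in both without div12 replicate 1. For div12_48_d against div0, differences near 0 changed sign for at least 1 member in 7 of 22 alternatives. The cause of these shifts was not tested.

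The sources used here do not say whether same-numbered replicates of different groups share a pool of mice. The replicate block moved no count of members (10 against naive, in div12_48_d against div12_48_u and in div12_48_u against div12, and 0 elsewhere), while calls over all genes in div12 against div0 went from 388 to 247. Same-number deviations of div0 and div12 had r = -0.24 over genes. Crossed numbers were added after seeing the data, in a model of div0 and div12 alone. There 8 members were called higher, against 6.23% of tested genes, and 583 genes were called in either direction. A pairing picked after seeing the data can lower the spread left over. These calls therefore decide nothing about the members, and the model differs from those behind 388 and 247.

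Calls over all genes in div12 against div0 were 162 without a filter, 183 without the trend, 236 for these groups alone, 223 with the most abundant transcript, 601 without naive (added after seeing the data) and 0 to 607 without 1 library: 0 without either div0 library, 119 and 4 without div12 replicates 1 and 2, 241 and 237 without those of div12_48_u, and 607 and 604 without those of naive. In div12_48_d against div12_48_u, 1134 calls became 670 for these groups alone and, without 1 library, 347 (div12_48_d replicate 1), 553 (div12_48_u replicate 1) or 629 (div12_48_u replicate 2). In div12_48_d against div12, 706 became 412 and, without 1 library, 227 (div12_48_d replicate 2), 301 (div12 replicate 2) or 446 (div12 replicate 1), and in div12_48_d against div0, 818 became 300 to 476 without a library of either group. In div12_48_u against naive, 1880 became 1082 for these groups alone. In div0 against naive, 2431 became 1573 without div0 replicate 2, and in div12_48_u against div12, 1828 became 1213 without div12_48_u replicate 1 and 1216 without div12 replicate 2. The difference of division effects went from 0 to at most 23 genes, after median-ratio scaling.

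Scaling moved the balance of directions over all genes. In div0 against naive, 680 higher and 1751 lower became 1130 and 1165 after median-ratio scaling, and the median of all genes moved from -0.24 to -0.03. In div12 against naive, 858 and 2104 became 1388 and 1457. In div12_48_u against div12, 1225 and 603 became 816 and 952, in div12_48_d against div12, 525 and 181 became 442 and 428, and in div12 against div0, 163 and 225 became 331 and 188. The members kept their direction in each of these.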
